A study of Mus musculus with 22 samples.

Results

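Neurotrophins and the ligands of the GDNF family are secreted growth factors that act on neurons through receptors at the cell surface. In the spinal cord dorsal horn, BDNF released by sensory fibres and microglia is known for raising the excitability of pain pathways through its receptor TrkB. The 9 genes described here were taken by symbol: the ligand genes Bdnf, Ntf3 (neurotrophin-3) and Gdnf, the neurotrophin receptor genes Ntrk2 (TrkB), Ntrk3 (TrkC) and Ngfr (p75), and the genes of the GDNF family receptors, Gfra1, Gfra2 and Ret. All 9 were among the 17306 genes of the deposited table.

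RNA was sequenced from lumbar (L4-L6) spinal cord of 22 male wildtype C57BL6J mice, aged 12 to 14 weeks at collection. Every mouse had received 1 mg of monosodium iodoacetate (MIA) in a knee, a model of osteoarthritis pain, so no comparison here contains an uninjured cord. Mice were given SAFit2, a selective inhibitor of the glucocorticoid receptor co-chaperone FKBP51, at 100 mg/kg in a slow-release vesicular phospholipid gel (VPG), or the gel alone (Vehicle). Gels were given early (per the methods on days -3 and 4 around MIA, per the labels on days 3 and 4) or late (days 20 and 27), and cords were collected on day 30. SAFit2 was given to 5 early and 5 late mice, and Vehicle to 6 early and 6 late mice (Early SAFit2, Late SAFit2, Early Vehicle and Late Vehicle). The labels name the timing as a batch, so time of treatment and batch cannot be told apart. The titles of the 5 Early SAFit2 libraries read SAFit1, while their treatment label reads SAFit2, which was used.

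Between 11352989 and 24433349 reads per library fell on genes. The study's text describes the tissue as dorsal horn quadrants on the injured side. The 12 dorsal horn neuron markers summed to 393 to 881 CPM (read counts scaled by library size). The 7 markers of motor neurons, cells of the ventral horn, summed to 111 to 436 CPM. Among these, Ache stayed at 6.15 log2 CPM or above, while Chat fell to 21 reads in a Late SAFit2 mouse. Mnx1 fell to 0 reads in mice of the Early SAFit2, Late SAFit2 and Late Vehicle groups. The motor neuron sum therefore does not show how much ventral horn a library held. Schwann cell markers, which come from nerve roots, ranged from 26.2 to 2810 CPM among the Late SAFit2 mice alone. The lowest of these values belonged to replicate 2 of that group. The trend of a library's values with the GC content of the genes also differed between groups. Its slope ran from -0.476 to -0.054 in Late SAFit2 and from -0.321 to 0.489 in Late Vehicle mice, in log2 units per 10 percentage points of GC content. In bulk RNA, fewer cells of a type and less RNA per cell cannot be told apart.

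To show the sequence in front of the genes that the results below turn on, the 250 bases before RefSeq transcript starts (GRCm38.p6) are printed for Ntrk2 and for 2 of the 7 starts of Bdnf. Windows were given for 6 of the 9 genes, 14 in all. Capitals mark matches on either strand to TGACG, the core of the CREB element, or to AGAACA, the core of the glucocorticoid response element.
Ntrk2, chr13:58806319-58806568, + strand: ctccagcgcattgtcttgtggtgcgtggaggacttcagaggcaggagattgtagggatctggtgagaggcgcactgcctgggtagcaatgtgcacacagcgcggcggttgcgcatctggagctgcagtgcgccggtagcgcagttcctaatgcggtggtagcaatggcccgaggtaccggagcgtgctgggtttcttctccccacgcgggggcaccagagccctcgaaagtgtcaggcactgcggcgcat
Bdnf, chr2:109674450-109674699, + strand: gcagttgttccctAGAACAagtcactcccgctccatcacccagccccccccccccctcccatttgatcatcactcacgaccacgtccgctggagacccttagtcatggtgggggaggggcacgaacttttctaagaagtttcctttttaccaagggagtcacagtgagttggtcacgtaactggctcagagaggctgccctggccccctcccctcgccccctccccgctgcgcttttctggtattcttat
Bdnf, chr2:109692186-109692435, + strand: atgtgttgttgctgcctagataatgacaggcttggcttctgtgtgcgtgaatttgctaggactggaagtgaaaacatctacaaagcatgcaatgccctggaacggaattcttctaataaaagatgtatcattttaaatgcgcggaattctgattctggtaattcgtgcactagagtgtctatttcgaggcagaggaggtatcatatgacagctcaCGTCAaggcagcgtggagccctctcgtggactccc
The Ntrk2 window ends at the base before the annotated gene, as does the window at 109674450 for Bdnf, and the other Bdnf window lies in an intron. The Ntrk2 window held neither motif, the upstream Bdnf window held 1 AGAACA and the intronic one held 1 TGACG in reverse (CGTCA). Of the other Bdnf windows, those starting at 109676782 and 109709133 each held 1 AGAACA. Those starting at 109692777, 109694159 and 109722671 held neither motif. Of all 32851 windows of this length, 17.8% held TGACG and 16.1% held AGAACA, and among the 14 windows of these genes the counts were 2 and 3. A match is a string of letters and was not tested as a binding site.

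The most abundant transcripts were those of receptors. Per kilobase of the longest transcript, Ntrk2 had the highest level, 5.21 ± 0.30 log2 CPM per kb (SD, n = 22 mice). Gfra1 followed at 3.66 ± 0.28, Ret at 3.56 ± 0.45 and Gfra2 at 3.29 ± 0.22 on the same scale. The levels of Gfra1 and Ret did not differ beyond their spread, with Gfra1 above Ret in 13 of 22 mice, nor did those of Ret and Gfra2, with Ret above in 16. Bdnf, the only ligand gene with over 100 reads in each library, stood at 1.90 ± 0.41 log2 CPM per kb, above Ntrk3 at 1.2 ± 0.32 in 20 of 22 mice. This order depends on the division by length, as before it Ntrk3 averaged 5.50 log2 CPM and Bdnf 3.99. Ngfr was at -0.14 ± 0.62, Ntf3 at -2.28 ± 1.19 and Gdnf at -4.00 ± 1.04 log2 CPM per kb.

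The last of these were near the limit of detection. Gdnf, the ligand of the GFRα1-Ret complex, had 0 to 19 reads per library and 77 in all 22 libraries. It had 0 reads in 8 libraries, where each such count allows up to 3 reads. Ntf3, the ligand of TrkC, had 0 to 20 reads and 120 in all, with 0 reads in 5 libraries. Gdnf did not reach a log2 CPM of -1 in 5 libraries, the filter used here, so 8 of the 9 genes were tested among 16765. Ntf3 passed because of a few libraries with 11 to 20 reads, and its differences have wide errors.

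**Figure D1:**
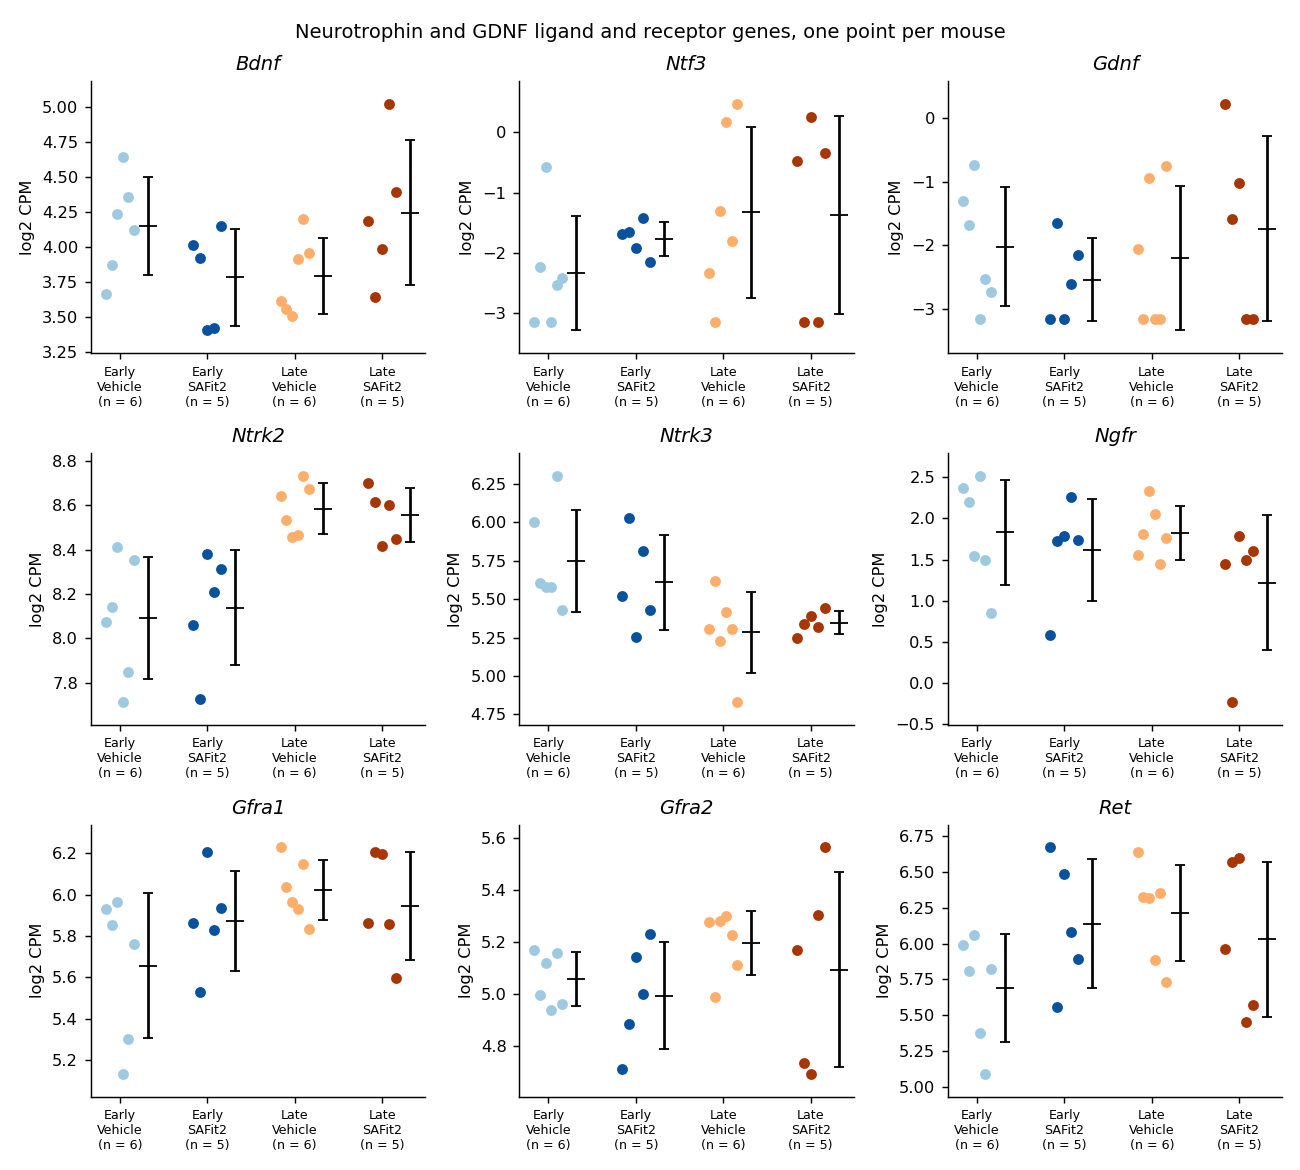
log2 CPM of the 9 genes (y axes, each with its own range) in the 4 groups, with 1 point per mouse and bars for the mean ± SD. Ntrk2 is the gene whose late mice (8.42 to 8.74) all lie above its early mice (7.71 to 8.41), while SAFit2 and Vehicle points overlap in every panel.

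SAFit2 given late, close to collection, moved none of these genes past the threshold. By limma, a call needed a Benjamini-Hochberg adjusted p under 0.05 over all genes tested and a change of at least 1.2-fold. Of the 8 genes tested 0 were called between Late SAFit2 and Late Vehicle mice, against 12.1% of all genes. limma voom on the recovered reads also called 0, and 1 of the 8 (Bdnf) had an unadjusted p under 0.05, against 34.5% of all genes. The median log2 fold change of the 8 was -0.06, next to -0.05 over all genes. The groups overlapped for each of the 8, while 1.71% of all genes did not overlap.

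Bdnf encodes the activity-dependent ligand of TrkB (Entrez gene 12064, chromosome 2, 109674700 to 109727007, GRCm38). In Late SAFit2 mice it was at 4.18, 3.64, 3.99, 5.02 and 4.39 log2 CPM, from 167 to 325 reads. In the 6 Late Vehicle mice the lowest value was 3.51, the median 3.76 and the highest 4.20. Of the 5 SAFit2 mice, 2 lay above all Vehicle mice and the others lay within their range. The means were 4.24 ± 0.51 (SD, n = 5) and 3.79 ± 0.27 (n = 6), 0.45 apart on the log2 scale (standard error 0.21, limma adjusted p = 0.13, two-sided exact permutation p = 0.078).

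That difference was smaller without 1 mouse and after correction for GC content. Without replicate 4 of Late SAFit2, its highest mouse, the log2 fold change was 0.26 (limma adjusted p = 0.398). The longest Bdnf transcript has 40.9% GC against a median of 49.7% over genes. After correction for GC content and length, which takes out the trend of each library, the late log2 fold change was 0.06 (limma adjusted p = 0.914). Without strand in the counting, which the sources used here do not state, reads of the antisense gene Gm45346, which shares 896 exon bases with Bdnf, cannot be told apart from its own.

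The p75 receptor gene Ngfr (Entrez gene 18053, chromosome 11, 95568818 to 95587735), which binds all neurotrophins and their pro-forms, had the largest late difference by size among the 8. Its Late SAFit2 mice were at 1.44, -0.23, 1.79, 1.49 and 1.60 log2 CPM, and Late Vehicle mice ran from 1.45 over a median of 1.79 to 2.33. Replicate 2 stood alone with 10 reads, while the other 4 SAFit2 mice lay between 1.44 and 1.79. The log2 fold change was -0.61 (standard error 0.35, limma adjusted p = 0.22, exact p by permutation = 0.076), and -0.25 without replicate 2 (limma adjusted p = 0.618). After the GC and length correction it was -0.15 (limma adjusted p = 0.878). Replicate 2 is also the library with the lowest sum of Schwann cell markers. Pmp2 was at 0 reads there, and the 6 markers summed to 26.2 CPM, against 343 to 2810 in the other Late SAFit2 mice. Not every marker fell, as Cdh19 stayed at 3.85 log2 CPM or above in all Late SAFit2 mice. Schwann cells are known to carry p75, and their part in this Ngfr value was not tested.

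For the other receptor genes the late differences were not called in the fit as reported. Ntrk2 differed by -0.03 on the log2 scale (95% interval -0.28 to 0.23) and Ntrk3 by 0.06 (-0.25 to 0.38). After the GC and length correction Ntrk3 differed by -0.22, the other sign (limma adjusted p = 0.59). Gfra1 differed by -0.08 (-0.38 to 0.23), Gfra2 by -0.10 (-0.38 to 0.17) and Ret by -0.18 (-0.64 to 0.28). For Ntf3 the difference of -0.05 had an interval of -1.48 to 1.38, which holds changes of 2-fold in either direction. With library quality weights Gfra2 was called, at -0.30 (limma adjusted p = 0.0443), a setting under which 6381 genes were called between the late groups.

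SAFit2 given early, long before collection, left no called difference either. limma called 0 of the 8 genes between Early SAFit2 and Early Vehicle mice, and 0% of all genes, and voom also called 0. Of the 8, 0 had an unadjusted p under 0.05, and the groups overlapped for each, while 0.352% of all genes did not overlap. Ret, the signalling subunit of the GDNF receptors, had the largest difference relative to its error. Its Early SAFit2 mice were at 6.67, 5.55, 6.49, 6.08 and 5.89 log2 CPM, and Early Vehicle mice ran from 5.09 over a median of 5.82 to 6.06. Of the SAFit2 mice 3 lay above all Vehicle mice. The log2 fold change was 0.45 (standard error 0.23, limma adjusted p = 1.00, exact p by permutation = 0.11). Bdnf differed by -0.36 (standard error 0.21, limma adjusted p = 1.00, exact p by permutation = 0.12), with 2 of the 5 SAFit2 mice below all Vehicle mice.

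Averaged over both timings, the effect of SAFit2 reached the threshold for none of these genes. At an unadjusted limma p under 0.05, 0 of the 8 genes were counted, against 13.2% of all genes, and voom counted 0. The largest was again Ngfr, at -0.41 (standard error 0.25, limma p = 0.11, adjusted p = 0.44, exact p by permutation = 0.13). Without replicate 6 of Early Vehicle it was -0.51 and counted. For Bdnf the average was formed from early and late differences of opposite sign.

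The early and the late effect on Bdnf had opposite signs, and the difference itself was tested. Early SAFit2 mice (3.78 ± 0.35, n = 5) averaged below Early Vehicle mice (4.15 ± 0.35, n = 6), and Late SAFit2 mice averaged above Late Vehicle mice. The early minus the late log2 fold change was -0.82 (standard error 0.30, limma p = 0.011, permutation p = 0.016). It did not pass over all genes (limma adjusted p = 0.12), where 24.9% had an unadjusted p under 0.05 and 0% were called. limma called 0 of the 8 genes in this contrast, 1 of 8 (Bdnf) had an unadjusted p under 0.05, and voom called 0. After the correction for GC content and length the difference was -0.40 (limma adjusted p = 0.539). With library quality weights it was -0.74 and was called (limma adjusted p = 0.0322). Ret had the next largest difference relative to its error, 0.63 (standard error 0.32, limma adjusted p = 0.22, exact p by permutation = 0.097).

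**Figure D2:**
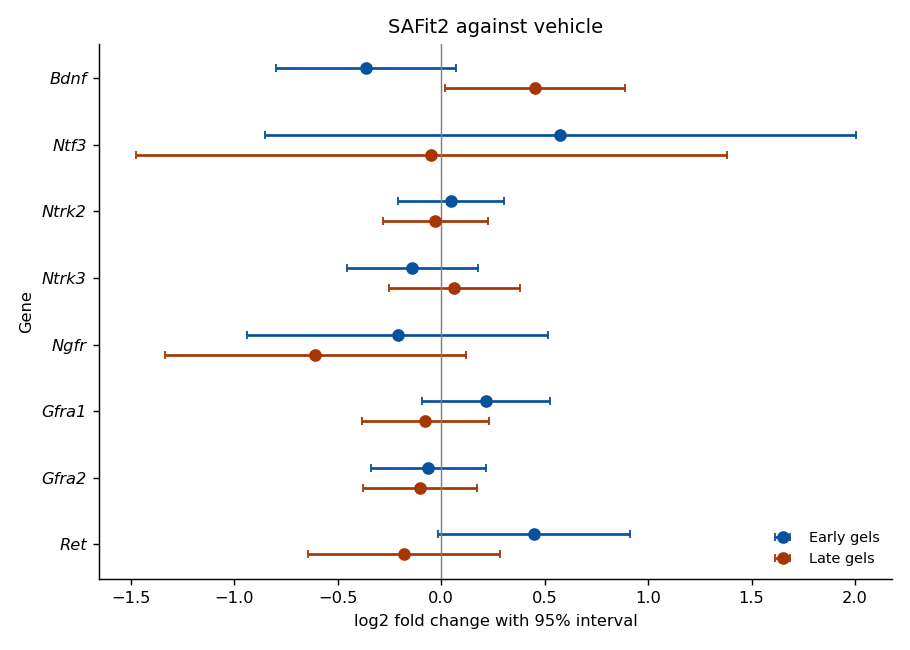
log2 fold change of SAFit2 against Vehicle (x axis) for the 8 genes tested, early in blue and late in brown, with bars for the 95% interval of the limma fit. Bdnf lies at -0.36 early and 0.45 late, and Ntf3 has the widest intervals.

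Ntrk2 was higher in late than in early mice, with either gel. TrkB (Entrez gene 18212, chromosome 13, 58806569 to 59133970) is the receptor of BDNF, and a truncated form without the kinase is the main one in astrocytes. Counts per gene cannot tell the forms apart. Late Vehicle mice ran from 8.46 over a median of 8.59 to 8.74 log2 CPM, and Early Vehicle mice from 7.71 over 8.11 to 8.41. Late SAFit2 mice were at 8.70, 8.62, 8.42, 8.60 and 8.45, and Early SAFit2 mice at 8.06, 7.72, 8.38, 8.21 and 8.32. All 11 late mice lay above all 11 early mice, the closest at 8.416 and 8.414. Of all genes tested 1.70% did not overlap in this way, and Ntrk2 was the only one of the 8. Late and early mice also did not overlap after median centring or after the GC and length correction.

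In Vehicle mice the log2 fold change of Ntrk2, late against early, was 0.49 (standard error 0.12, limma adjusted p = 0.0084, exact p by permutation = 0.0022, the smallest that 924 splits of 6 against 6 mice can give). In SAFit2 mice it was 0.42 (standard error 0.13, limma adjusted p = 0.024, exact p by permutation = 0.0079, the smallest that 252 splits can give), a comparison added after the values were seen. These are 1.41-fold and 1.34-fold. The GC and length correction left 0.53 and 0.48. With quantile normalization they were 0.31 and 0.26 and neither was called (limma adjusted p = 0.125 and 0.18). The SAFit2 call was also lost without replicate 2 of Early SAFit2 (0.32, limma adjusted p = 0.0865) or replicate 4 of Late SAFit2 (0.41, limma adjusted p = 0.0502), and with library sizes without Bc1 and mitochondrial genes (0.29).

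Astrocyte markers moved with Ntrk2. The 7 markers summed to 3060 to 4540 CPM in early and 4490 to 6020 CPM in late mice. In Vehicle mice 2 of the 7, the glutamate transporter gene Slc1a2 (log2 fold change 0.46, limma adjusted p = 0.018) and the gap junction gene Gja1 (0.47, limma adjusted p = 0.024), were called higher late, and 0 were called lower. In SAFit2 mice 5 of 7 were called higher. Gfap, the marker of reactive astrocytes, was not called, at 0.10 in Vehicle and 0.05 in SAFit2 mice. Over the 22 mice, Ntrk2 and the logarithm of the summed markers had r = 0.82 (Spearman rho = 0.84), with r = 0.59 among the 11 early and 0.34 among the 11 late mice. Microglia markers also moved with timing. The 6 markers summed to 223 to 310 CPM in early and 305 to 391 CPM in late mice, and late against early limma called 3 of 6 higher in SAFit2 mice and 0 in Vehicle mice. Ntrk2 and these markers had r = 0.61 (rho = 0.69) over the 22 mice, with -0.14 among the early and -0.08 among the late mice. With oligodendrocyte precursor markers Ntrk2 had r = 0.60 (rho = 0.41), with 0.90 among the early and -0.27 among the late mice. With oligodendrocyte markers r was -0.38 (rho = -0.03), with -0.73 among the early and -0.18 among the late mice. The part of these marker lists in the Ntrk2 difference was not tested.

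Of the 8 genes, limma called 2 in Vehicle mice, late against early, against 9.11% of all genes. In SAFit2 mice it called 1, Ntrk2, against 20.5%. Both comparisons contain groups that also enter the drug comparisons. The other call in Vehicle mice was Ntrk3 (Entrez gene 18213, chromosome 7, 78175959 to 78738012), the gene of the neurotrophin-3 receptor TrkC, which was lower late. Late Vehicle mice ran from 4.83 over a median of 5.31 to 5.62 log2 CPM and Early Vehicle mice from 5.43 over 5.59 to 6.30, so that 5 of 6 late mice lay below all early mice. The log2 fold change was -0.47 (standard error 0.15, limma adjusted p = 0.045, exact p by permutation = 0.017).

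The Ntrk3 call stood close to the threshold. It was lost in 14 of 22 fits that each left out 1 library (limma adjusted p up to 0.129). It was also lost without the variance trend, after median centring and with only the mice of the comparison. After the GC and length correction it was lost as well (-0.23, limma adjusted p = 0.40), and also with the replicate block added. In SAFit2 mice the difference was -0.26 (limma adjusted p = 0.25). Late SAFit2 mice lay close together at 5.25, 5.34, 5.39, 5.32 and 5.44, and 4 of the 5 lay within the range of Early SAFit2 mice, 5.25 to 6.03.

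Gfra1 and Ret encode the binding and the signalling subunit of the GDNF receptor, and in Vehicle mice they were higher late by 0.37 (standard error 0.14, limma adjusted p = 0.10) and 0.52 (standard error 0.21, limma adjusted p = 0.13) without a call. Late Vehicle mice ran from 5.83 to 6.23 log2 CPM for Gfra1, against 5.13 to 5.96 early. For Ret they ran from 5.73 to 6.64, against 5.09 to 6.06. In both genes 4 of the 6 late mice lay above all early mice. In SAFit2 mice the differences were 0.07 and -0.11. The antisense gene Gm16277 shares 416 exon bases with Gfra1, with the same limit on telling reads apart as for Bdnf. Gfra1 was called in Vehicle mice after median centring (0.43, limma adjusted p = 0.0405) and after the GC and length correction (0.34, limma adjusted p = 0.0435; 0.032 with the replicate block added). Ret was called with library quality weights (0.44, limma adjusted p = 0.0275) and with the GC and length correction and replicate block together (0.48, limma adjusted p = 0.0306). The other genes, Bdnf (-0.36), Ntf3 (1.02), Ngfr (-0.0026) and Gfra2 (0.14), were not called in Vehicle mice.

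**Figure D3:**
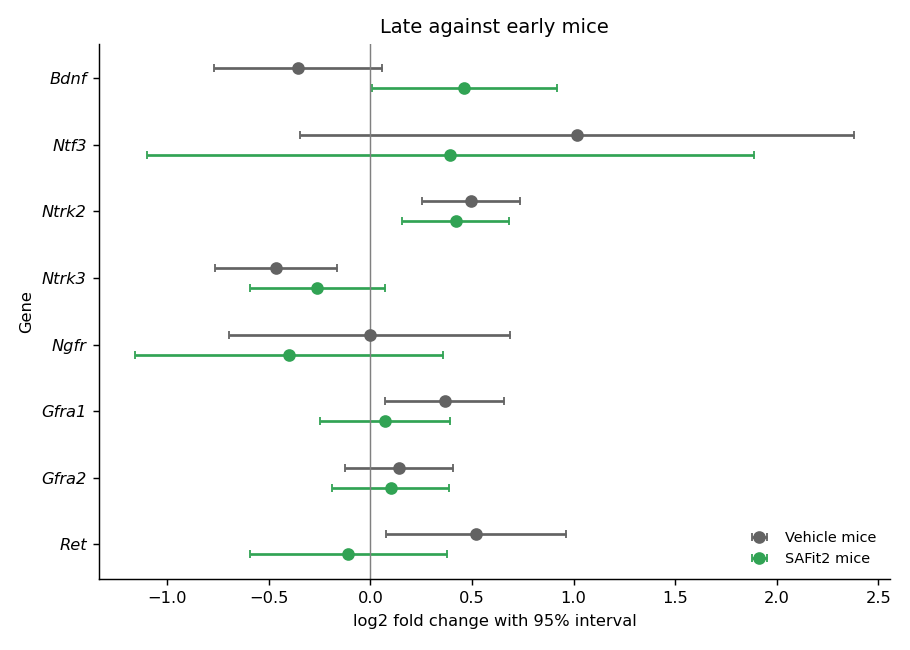
log2 fold change of late against early mice (x axis) for the 8 genes tested, Vehicle in grey and SAFit2 in green, with bars for the 95% interval of the limma fit. Ntrk2 lies at 0.49 and 0.42, with both intervals above 0.

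Mouse by mouse, the levels of Gfra1 and Ret varied together, while Gfra2 did not follow them. Over the 22 mice, Gfra1 and Ret had r = 0.84 (rho = 0.83), the highest of the 36 pairs, with 0.82 in early and 0.90 in late mice, and 0.81 after the GC and length correction. Gfra2 had r = -0.33 with Ret (rho = -0.22), with -0.22 in early and -0.62 in late mice. With Gfra1 it had r = -0.05 (rho = 0.08), with 0.26 in early and -0.67 in late mice. Bdnf ran against Ret (r = -0.64, rho = -0.56; -0.58 after the correction), with -0.60 in early and -0.74 in late mice. Ntrk2 and Ntrk3 had r = -0.76 (rho = -0.76), with -0.63 in early and -0.45 in late mice, and -0.48 after the correction. These values share libraries, scaling and tissue make-up, and are descriptions.

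Motor neuron markers tracked the same axis. Ret is known to be made by spinal motor neurons. Its level and the logarithm of the summed motor neuron markers had r = 0.88 (rho = 0.88), with 0.83 in early and 0.93 in late mice and 0.85 without the 2 mice farthest from the median of the markers. For Gfra1 the value was 0.70 (rho = 0.75) and for Bdnf -0.66 (rho = -0.57). Ret also had r = -0.59 with dorsal horn neuron, 0.57 with dorsal root ganglion sensory neuron and 0.56 with endothelial and mural markers. Gfra2 had r = 0.66 with dorsal horn neuron markers. Slc5a7, the choline transporter gene, ranged from 0.486 to 7.308 log2 CPM between mice. The summed motor neuron markers were 203 to 350 CPM in Late Vehicle and 111 to 325 CPM in Early Vehicle mice. Of the 7, limma called 1 higher late, Ache (median 7.53 against 6.80 log2 CPM), and 0 lower. Medians of the others ran from lower late (Mnx1, -1.06 against -0.57) to higher (Slc18a3, 4.22 against 3.29). The part of these markers in the Ret, Gfra1 and Bdnf differences was not tested. For Ngfr and Schwann cell markers r was 0.65 (rho = 0.32), and 0.14 without the 2 mice farthest from the median, so that the relation rests on those mice. Bdnf also ran against the endothelial and mural markers (r = -0.70, rho = -0.65), with -0.70 in early and -0.76 in late mice. These relations, and those of Ntrk2 above, were picked after the values of 14 marker lists were seen.

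**Figure D4:**
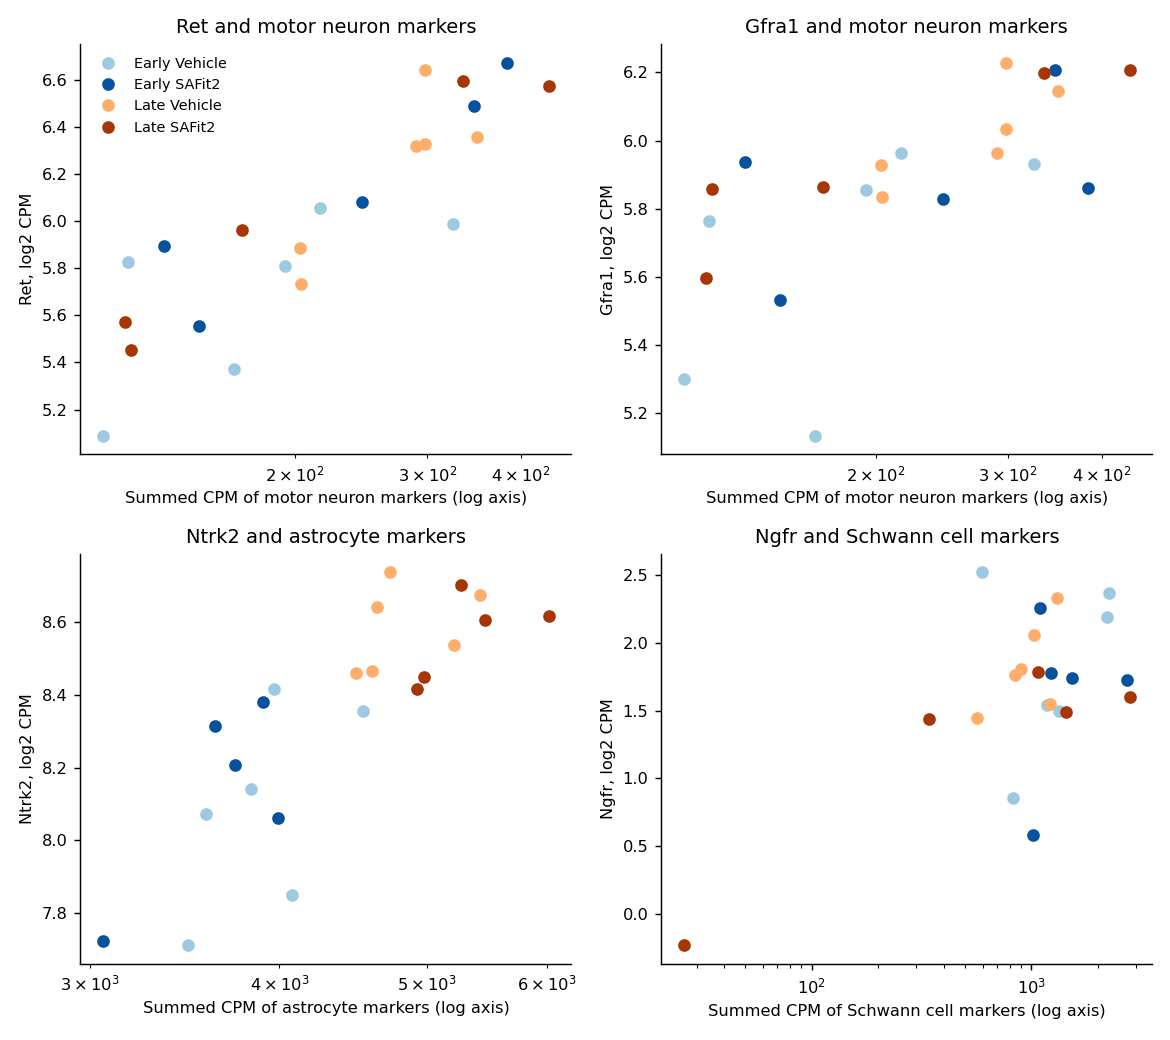
log2 CPM of a gene (y axis) against the summed CPM of a marker list (log x axis), 1 point per mouse, coloured by group. Ret and Gfra1 rise with motor neuron markers (r = 0.88 and 0.70) and Ntrk2 with astrocyte markers (r = 0.82), and 1 Late SAFit2 mouse at 26.2 CPM stands apart in the Ngfr panel.

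The genes whose pattern over the 22 mice was most like each member were found among all 16765. For Ntrk2 these were Scarb2 (r = 0.91) and Ptprz1 (0.90), for Ret Tmem229b (0.93) and Acly (0.93), and for Gfra1 Synrg (0.90) and Appbp2 (0.90). For Bdnf they were Zfp326 (0.80) and Smarca1 (0.77), for Ntrk3 Nav1 (0.85) and Tada2a (0.83), and for Ngfr Adamts15 (0.84) and Zfp593 (0.80). Gfra2 was most like Igsf3 (0.80) and Myom3 (0.77), and Ntf3 was most like Fcgr4 (0.68) and Gm5914 (0.66). None of the 8 genes was among the 2 genes most like another of them.

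Genes of the wider pathway, from other ligands and receptors to signalling enzymes and regulators of Bdnf, were also compared between the late groups. Of 141 genes tested in 7 lists of the pathway, limma called 28 (19.9%, against 12.1% of all genes), 10 with higher and 18 with lower values after late SAFit2. In the list of adaptors and signalling enzymes 5 of 54 were higher and 10 lower. Among regulators of the Bdnf gene it was 2 and 5 of 17, among p75 signalling genes 2 and 1 of 18, and among neurotrophin response genes 1 and 0 of 17. Of 19 other receptors and co-receptors 1 was lower (Gfra4), of 5 other ligands 1 was lower (Mdk, -0.53, outside the rule for named genes), and of 11 genes that process proneurotrophins 0 were called, with 3 at an unadjusted p under 0.05.

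The genes called higher in Late SAFit2 mice included carriers of the Trk signal into the cell and regulators of Bdnf. Pik3r1, a regulatory subunit of PI3-kinase, was higher by 0.35 (standard error 0.10, limma adjusted p = 0.0343). Creb1, which drives Bdnf transcription, was higher by 0.49 (limma adjusted p = 0.036) and Mef2c, another regulator of Bdnf, by 0.61 (limma adjusted p = 0.0324). Rhoa, the GTPase downstream of p75, was at 8.29 ± 0.10 log2 CPM (SD, n = 5) against 7.91 ± 0.18 (n = 6), and was the only one of the 28 whose groups did not overlap. Mapk8 (the kinase JNK1) was higher by 0.44 and Homer1, a synaptic scaffold gene induced by BDNF, by 0.63.

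The genes lower in Late SAFit2 mice came from the same lists. Src, a kinase recruited by Trk and Ret, was at 4.73 ± 0.29 (n = 5) against 5.45 ± 0.43 (n = 6), a difference of -0.72 (standard error 0.19, limma adjusted p = 0.0331). Map2k2, the ERK kinase MEK2, differed by -0.73 (limma adjusted p = 0.0346), the adaptor gene Sh2b1 by -0.61 and Dok4, an adaptor of Ret, by -0.89. Hdac5, a histone deacetylase, differed by -0.77 (limma adjusted p = 0.0327) and Usf1, a transcription factor acting at Bdnf promoters, by -0.60. Gfra4, the receptor gene for persephin, was at 2.83 ± 0.21 against 3.64 ± 0.64, a difference of -0.81 (standard error 0.24, limma adjusted p = 0.037).

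The direction of these calls followed the base composition of the transcripts. The 10 genes higher in Late SAFit2 had 36.9 to 44.9% GC and the 18 lower had 55.0 to 64.4%, with no overlap. After the same correction for GC content and length 0 of the 28 were called (lowest limma adjusted p = 0.159), while 10 of 10 and 17 of 18 kept their sign. The number of pathway genes called also fell to 0 without the variance trend, with only the 11 late mice in the fit, and without any 1 of 7 late mice (SAFit2 replicates 2, 4 and 5, Vehicle replicates 1, 3, 4 and 5). It was 13 with voom, and 17 with quantile normalization or without replicate 4 of Early SAFit2 or replicate 3 of Late SAFit2. Other settings raised it, to 68 with library quality weights, 55 without replicate 6 and 47 without replicate 2 of Late Vehicle, and 48 without replicate 1 of Late SAFit2.

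**Figure D5:**
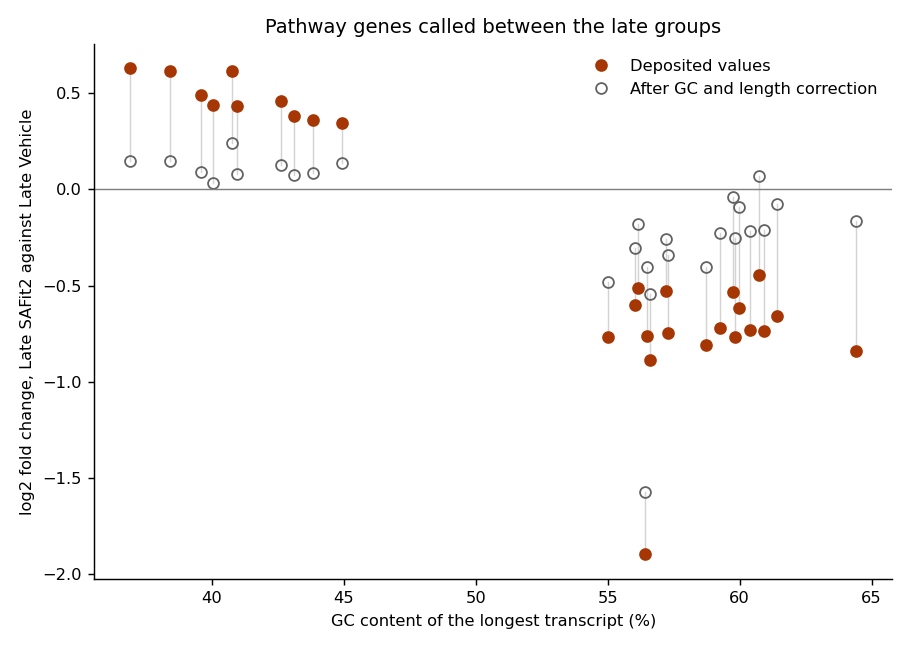
log2 fold change of Late SAFit2 against Late Vehicle (y axis) for the 28 pathway genes called, against the GC content of the longest transcript (x axis, percent). Filled points are deposited values and open points the values after GC and length correction, where each gene's value lies nearer to 0 or across it.

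Early SAFit2 left 0 of the 141 pathway genes called by limma, with 3 at an unadjusted p under 0.05. In Vehicle mice, late against early, 8 were higher and 3 lower (7.80%, against 9.11% of all genes). The higher genes included the GDNF co-receptor Ncam1 (0.28, limma adjusted p = 0.0441), the heparan sulphate co-receptor Sdc3 (0.53), the sortilin family receptor Sorcs2 (0.62), the convertase Pcsk2 (0.37), the adaptor Crkl (0.61), Ncstn, a subunit of the protease γ-secretase (0.35), and the feedback inhibitor Spry2 (0.41). The lower genes were the adaptors Grb10 (-0.54) and Shc1 (-0.67) and the activity-induced transcription factor Npas4 (-1.63, limma adjusted p = 0.013). These genes lie outside the rule for named genes and were named after their values were seen. With library sizes without Bc1 and mitochondrial genes, which moved the median of all genes by -0.11 in this comparison, the split was 1 higher and 10 lower.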

How the data were processed

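RNA from lumbar spinal cord of 22 mice was sequenced as 75-base read pairs from stranded libraries. Per the methods and the submitters' notes, the authors trimmed reads with Trimmomatic, aligned them to mm10 with HISAT2, counted them per gene and scaled libraries with edgeR. The deposited values are log2 CPM with a prior of about 2.0 reads (floor -3.154), and whole reads were recovered for 100% of values (tolerance 0.02 reads). Of the sample columns 0 were unused.

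Genes that reached -1 log2 CPM in at least 5 libraries entered limma 3.58.1 (R 4.3.3; mean per group, moderated variances with a trend), with Benjamini-Hochberg adjusted p over 16765 genes. Exact permutation tests over mice are two-sided. Intervals are 95%. On simulated data for the late comparison (16511 genes), 200 of 200 genes changed 2-fold were recovered with 12 false calls. The simulation gave every gene the same relative spread between mice, changed only genes with many reads and held no trend with GC content. It therefore checks the code and does not bear on smaller changes, on genes with few reads or on calls that follow GC content. The correction takes each library's loess trend (span 0.5) on the longest transcript's GC content and length (GENCODE M21, GRCm38), for 16209 genes, and also removes any drug effect that follows GC content.

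The members, the gene lists and the tests were chosen with earlier results of these data known. Named genes were all members, the 7 pathway genes of lowest p in each direction in the late comparison, and the 2 genes most correlated with each member. A few genes of these lists are not reported here. Alternatives were other filters, pseudocounts, variance models, scalings, voom, a replicate block and leaving out each library. The late against early comparison in SAFit2 mice, all its alternatives and the uncorrected genes with a GC value were added after seeing the data.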

Additional observations from a re-analysis of the deposited data

Results flagged for a closer look

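Of 36 groups of 5 or 6 mice (9 genes in 4 groups), 2 held a mouse apart from the others by Dixon's criterion, a number near the 1 in 20 groups that chance gives. Ngfr in Late SAFit2 replicate 2 was at -0.232 log2 CPM, where the gap to the next mouse was 0.828 of the range (critical value 0.71 for 5 mice). Ntf3 in Early Vehicle replicate 3 was at -0.573 log2 CPM (15 reads, against 0 to 2 in the other 5 mice), a gap of 0.643 of the range (critical value 0.625 for 6 mice). The effect of SAFit2 on Bdnf differed between early and late gels by -0.818 on the log2 scale (limma p = 0.011, exact permutation p = 0.016), which did not pass over all genes (limma adjusted p = 0.12).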

How the results depend on the processing

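The number of the 8 genes called in Vehicle mice, late against early, was 2, and 1 without the variance trend, with quantile normalization and with only the mice of the comparison. With median centring or with GC and length correction alone the number stayed at 2, with Gfra1 added and Ntrk3 lost. It was 3 with library quality weights (Ret added) and 3 with GC and length correction and the replicate block (Gfra1 and Ret added, Ntrk3 lost), and it ran from 1 to 2 over the libraries left out in turn. In SAFit2 mice the 1 call became 0 with quantile normalization and with library sizes without Bc1 and mitochondrial genes, and ran from 0 to 1 over the libraries left out. With library quality weights 1 gene was called in the late comparison (Gfra2), 1 at an unadjusted p in the mean effect (Gfra2) and 1 in the early minus late effect (Bdnf). In the mean effect 1 was also counted with GC and length correction and the replicate block (Ntrk3), and 0 to 1 over the libraries left out. At an adjusted p under 0.1 the late count was 0. The Ngfr difference between late and early SAFit2 mice went from -0.40 to 0.014 with GC and length correction, with or without the replicate block. The cause of these changes was not tested.

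No pairing of mice by replicate number was seen, though 10 pairs are few to judge it by. Same-numbered SAFit2 and Vehicle mice of the same timing had residual correlations from -0.236 to 0.317, with 2 of 10 above 0.1. With the replicate block alone, counts of called members stayed at 0 (late), 0 (early), 0 (mean effect), 0 (early minus late), 2 and 1, and the late count over all genes went from 2021 to 3157. It was 876 with voom, 62 without the variance trend, 1231 with quantile normalization, 6381 with library quality weights, and 0 with only the late mice or with GC and length correction. Of 1802 recomputed differences of the members, 92 changed sign. In 90 of these the value was smaller than its standard error and was called in neither fit, and the others are those of Ngfr above. Depth limits Gdnf and Ntf3, with at most 19 and 20 reads per library.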
